A study of Mus musculus with 10 samples.

Results

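The genes described here encode the calcium-activated phosphatase calcineurin, the NFAT transcription factors that it dephosphorylates, and the Rcan proteins that bind and regulate it. They were taken by symbol from the gene tables of left ventricle (LV) RNA, and all 9 were found among 55401 genes. These are Rcan1, Rcan2, the catalytic subunit genes Ppp3ca and Ppp3cb, the regulatory subunit gene Ppp3r1, and Nfatc1, Nfatc2, Nfatc3 and Nfatc4. The question was whether their RNA differed between pressure-overloaded and control young hearts. Of the mice compared, 5 had received nAAC, a surgical constriction of the ascending aorta made in the newborn, and 5 a sham operation. They were taken as wild-type (WT) on a C57BL/6 background, since the study names no other genotype for the sequenced mice. Its methods state that WT mice of the in vivo experiments came from AHR+/- parents, without naming the sequenced mice. All stayed with their mothers and were sampled at 4 weeks of age, with 1 library per mouse. Females and males were allocated at random per the study's methods, and the recorded sex of each mouse was not used here. The level of Xist, an RNA of cells with an inactive X, was not balanced between the groups and is given below. The tissue was the LV as a whole, so fewer cells of a type and less RNA per cell cannot be told apart in any value below.

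Calcineurin is a heterodimer of a catalytic A subunit and a calcium-binding B subunit, and it is switched on when calcium-loaded calmodulin binds the A subunit. It removes phosphates from NFAT proteins in the cytoplasm, which then enter the nucleus and act with partners such as GATA4, MEF2 and AP-1. In cardiomyocytes this route is a classical inducer of hypertrophic growth. Rcan1 is itself a transcriptional target of NFAT through a start site inside the gene, and its RNA is widely used as a readout of calcineurin activity. NFAT activity is set by phosphorylation and location, which RNA levels do not measure.

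Because Rcan1 changed most, the DNA before its start sites is shown first. Rcan1 (ENSMUSG00000022951) occupies bases 92391953 to 92470867 of chromosome 16 (GRCm38, minus strand). RefSeq (GRCm38.p6) windows mark a distal start and an internal one, 66091 bases apart, and the internal one lies in the first intron of the long GENCODE transcripts. The 250 bases before each start are printed 5′ to 3′ on the strand of the gene, with the NFAT core GGAAA (or TTTCC on the other strand) and the AP-1 site TGACTCA (or TGAGTCA) in capitals; no capitals overlap.
Rcan1 internal start, chr16:92400079-92400328, minus strand: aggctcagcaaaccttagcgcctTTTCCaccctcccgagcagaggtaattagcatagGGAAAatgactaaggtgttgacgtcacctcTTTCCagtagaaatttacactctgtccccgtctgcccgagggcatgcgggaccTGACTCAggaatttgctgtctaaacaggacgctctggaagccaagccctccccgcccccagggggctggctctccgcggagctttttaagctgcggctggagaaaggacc
Rcan1 distal start, chr16:92466170-92466419, minus strand: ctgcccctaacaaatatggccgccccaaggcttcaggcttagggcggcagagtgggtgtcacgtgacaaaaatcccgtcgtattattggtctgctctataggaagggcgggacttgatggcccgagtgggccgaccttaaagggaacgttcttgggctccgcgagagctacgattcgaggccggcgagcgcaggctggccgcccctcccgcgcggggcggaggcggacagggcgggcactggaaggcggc

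The internal window held 3 NFAT cores and 1 AP-1 site, and the distal window held neither. At least 3 cores occurred in 6.39% of the 32851 RefSeq windows of this length, and an AP-1 site in 4.46%. The table had 12 windows for 7 of the 9 genes, without Ppp3ca and Nfatc1. The windows of Nfatc4 and Ppp3cb and 1 of 2 windows of Nfatc2 also held 3 cores, and the other Nfatc2 window held 1. Those of Nfatc3 and Rcan2 held at most 1 and 2, and that of Ppp3r1 held none. An AP-1 site was also found in 1 of 3 windows of Rcan2, a gene that was not called. These are matches of letters and not sites of binding. The deposited values are per gene, so RNA from the internal and the distal start of Rcan1 could not be separated.

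The values are FPKM, fragments per kilobase of transcript, scaled to the total of fragments, which the authors computed and which allow levels of different genes to be set side by side. Read counts were not used here. If the most frequent ratio of coverage to FPKM, shared by 15.3% to 16.7% of genes above 1 FPKM, is the aligned total, libraries held between 4.86 and 6.82 gigabases, and the errors given are those between mice. Genes were tested with limma on log2(FPKM + 1), with adjusted p over all 11867 genes whose mean FPKM was at least 1, and all 9 genes passed this filter. A gene was called when its adjusted p was below 0.05, and was a DEG when its absolute log2 fold change (FC) was also above 1. On this scale the FC of low genes is understated. All genes tested had a median log2 FC of 0.22, and median-ratio scaling of the libraries, which sets it to 0, is therefore given for the calls. Sham replicate 4 stood apart on the second principal component, at -45.2 against -15.1 to 21.1 in the other libraries, and its deviations from the other sham mice fell with transcript length across genes (Spearman rho -0.66). The operation was visible in all 4 hypertrophy transcripts examined, and Nppa, which encodes atrial natriuretic peptide, averaged 8217 FPKM in nAAC mice and 121.0 in sham mice. All 6 cardiomyocyte markers were present in every library, with the lowest value at 31.9 FPKM, and the atrial markers Myl7, Myl4 and Sln summed to 2.03 to 227.0 FPKM after nAAC and 3.05 to 44.7 after sham surgery.

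Rcan1, Nfatc1, Nfatc2 and Nfatc4 rose in nAAC LV, and Ppp3ca, Ppp3cb, Ppp3r1, Rcan2 and Nfatc3 did not pass the test. Of the 9 genes, 4 were called higher and none lower in the limma fit, and the 4 were also those with an unadjusted p below 0.05. Among all genes tested, 31.7% were called, 27.1% higher and 4.6% lower. Rcan1 was the 1 DEG, where 5.91% of all genes were DEGs, 5.01% up-regulated and 0.893% down-regulated. The median log2 FC of the 9 genes was 0.24, close to the 0.22 of all genes tested. After median-ratio scaling 2 were called higher, Rcan1 and Nfatc4, and 2 lower, Ppp3cb and Ppp3r1, against 13.2% and 12.1% of all genes (25.2% in either direction). The split between higher and lower genes therefore depended on the scaling, while the order of the genes by log2 FC placed Rcan1 first and Nfatc4 next under both.

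**Figure D1:**
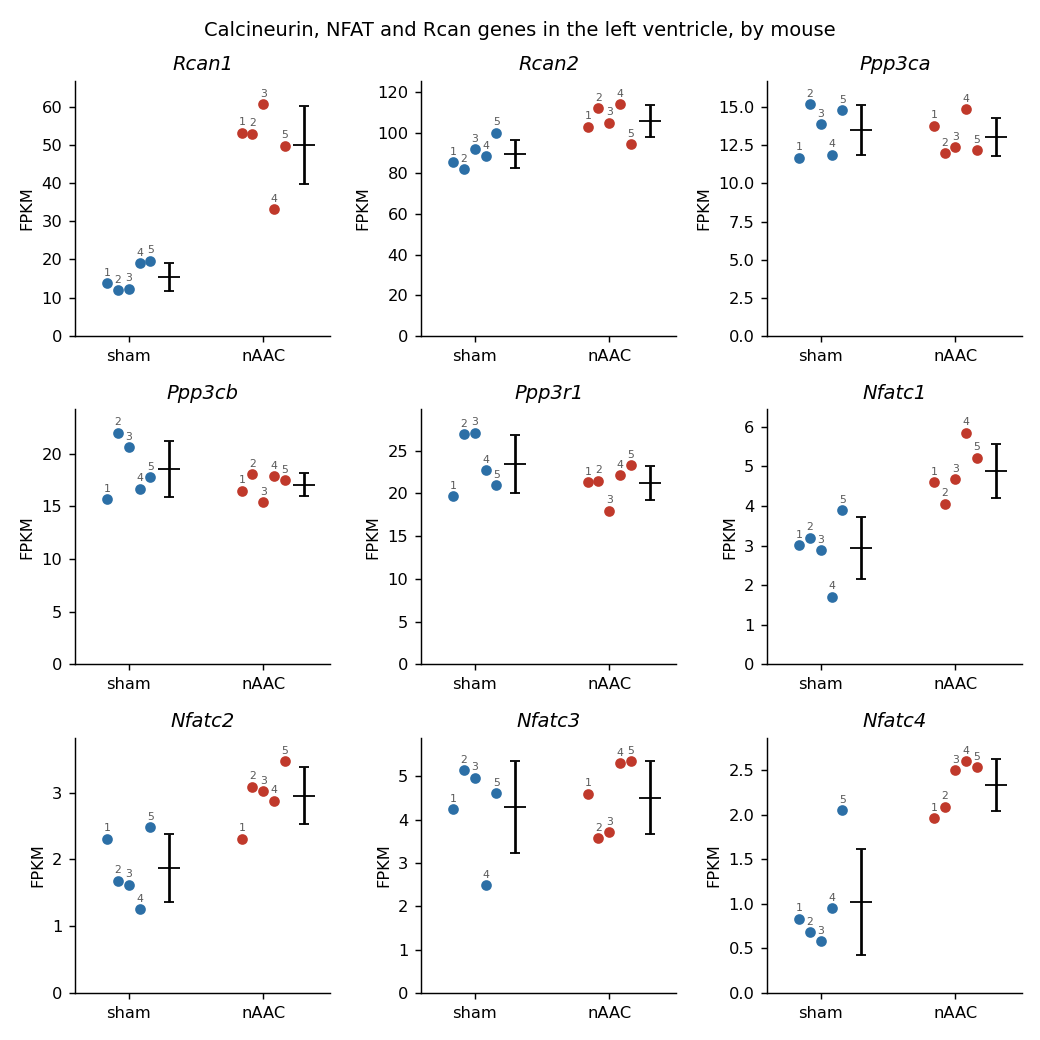
FPKM of each gene (vertical axis, from 0) in the 5 sham (blue) and 5 nAAC (red) mice. Points are mice marked with their replicate number, and bars are mean ± SD. The groups are fully apart for Rcan1 and Nfatc1, sham replicate 5 reaches the nAAC range for Nfatc4, and Ppp3ca, Ppp3cb and Ppp3r1 overlap.

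Rcan1 encodes the founding member of the regulators of calcineurin. Its level was 53.2, 52.9, 60.6, 33.1 and 49.8 FPKM in nAAC replicates 1 to 5. In sham replicates 1 to 5 it was 13.8, 12.0, 12.4, 19.0 and 19.7 FPKM. Every nAAC mouse thus lay above every sham mouse, with nAAC replicate 4 the lowest of its group and sham replicates 4 and 5 the highest of theirs. The means were 49.9 ± 10.2 and 15.4 ± 3.69 FPKM (SD, n = 5 each), a 3.24-fold difference. This gave a log2 FC of 1.63 with a standard error of 0.19 (limma adjusted p = 3.02e-05), and Rcan1 ranked 160 of the 11867 genes by log2 FC. A two-sided exact permutation test gave p = 0.00794, the smallest that 5 against 5 mice allow. After median-ratio scaling the log2 FC was 1.37 (limma adjusted p = 1.41e-04). It was called in all 19 alternatives, leave-one-out fits included, at 1.29 to 1.82. The only gene annotated across from it, the antisense Gm46555, reached at most 0.144 FPKM.

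Rcan2, a second regulator with the same calcineurin-binding fold, was the most abundant of the 9 genes in both groups. It was measured at 103.0, 112.0, 105.0, 114.0 and 94.4 FPKM in nAAC replicates 1 to 5 and at 85.6, 82.1, 92.0, 88.4 and 100 in sham replicates 1 to 5. Sham replicate 5 lay above nAAC replicate 5, and the other nAAC mice lay above all sham mice. The log2 FC was 0.24 with a 95% interval from -0.01 to 0.49 (limma adjusted p = 0.134), and the two-sided exact permutation test gave an unadjusted p of 0.0159. The direction depended on the scaling. It was -0.04 after median-ratio scaling (limma adjusted p = 0.821) and 0.41 in TPM, where it was called (limma adjusted p = 0.0271).

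The regulators therefore changed in their proportion. Within a library, a ratio of 2 genes does not depend on how libraries are scaled. Rcan1 stood at 0.514, 0.473, 0.578, 0.290 and 0.527 of Rcan2 in nAAC replicates 1 to 5, and at 0.161, 0.147, 0.135, 0.215 and 0.198 in sham replicates 1 to 5. All nAAC mice were above all sham mice. The geometric mean ratio was 0.464 in nAAC and 0.169 in sham mice, a log2 difference of 1.46 (two-sided exact permutation test, p = 0.0079, adjusted p = 0.024 over the 6 ratios tested). Rcan1 supplied 31.9% ± 5.53 of the summed Rcan1 and Rcan2 FPKM in nAAC mice and 14.6% ± 2.46 in sham mice (SD, n = 5 each).

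Ppp3ca, Ppp3cb and Ppp3r1 showed no called difference in FPKM, unlike the gamma subunit gene Ppp3cc described with the other pathway genes. Ppp3ca and Ppp3cb encode the alpha and beta catalytic subunits, of which the beta form is the one linked to hypertrophic growth in mouse genetics. Ppp3ca was 13.8, 12.0, 12.4, 14.9 and 12.2 FPKM in nAAC replicates 1 to 5 and 11.7, 15.2, 13.9, 11.9 and 14.8 in sham replicates 1 to 5. Ppp3cb was 16.5, 18.1, 15.4, 17.9 and 17.5 FPKM in nAAC replicates 1 to 5 and 15.7, 22, 20.6, 16.7 and 17.8 in sham replicates 1 to 5. Ppp3cb in sham replicates 2 and 3 lay above every nAAC mouse, and the groups otherwise overlapped for both genes. Their log2 FCs were -0.04 (95% interval -0.29 to 0.21, limma adjusted p = 0.802) and -0.10 (-0.36 to 0.15, limma adjusted p = 0.517).

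Ppp3r1 encodes the calcium-binding B subunit that partners both catalytic forms. Its FPKM was 21.3, 21.5, 18.0, 22.1 and 23.3 in nAAC replicates 1 to 5 and 19.7, 26.9, 27.1, 22.7 and 21 in sham replicates 1 to 5. Sham replicates 2 and 3 were the highest of the 10 mice, and the other sham mice lay within the nAAC range. Its log2 FC was -0.13 (95% interval -0.40 to 0.14, limma adjusted p = 0.44). The gene Wdr92, at 3.85 and 3.92 FPKM in nAAC and sham mice, is annotated over part of Ppp3r1 on the same strand, so some reads could belong to either.

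Ppp3ca, Ppp3cb and Ppp3r1 lay below most genes in log2 FC. Set against the median gene, their log2 FCs were -0.27 for Ppp3ca, -0.33 for Ppp3cb and -0.36 for Ppp3r1. After median-ratio scaling, Ppp3cb and Ppp3r1 passed the test at -0.37 and -0.40 (limma adjusted p = 0.0472 and 0.0464), while Ppp3ca did not at -0.30 (0.0654). In TPM the 3 log2 FCs were positive, at 0.12, 0.06 and 0.03. The proportions among these 3 genes, which no scaling alters, did not pass the test in either ratio examined. The log2 ratio of Ppp3ca to Ppp3cb was -0.39 ± 0.16 in nAAC and -0.46 ± 0.12 in sham mice (SD, n = 5 each; two-sided exact permutation test, p = 0.47, adjusted p = 0.56). That of Ppp3r1 to Ppp3ca was 0.70 ± 0.18 and 0.79 ± 0.19 (exact permutation test, p = 0.45, adjusted p = 0.56).

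Rcan1 changed in proportion to Ppp3ca as well, the only phosphatase gene that it was set against. Rcan1 RNA stood at 3.85, 4.41, 4.89, 2.22 and 4.09 times that of Ppp3ca in nAAC replicates 1 to 5. In sham replicates 1 to 5 the ratio was 1.18, 0.794, 0.894, 1.60 and 1.33. The groups did not overlap, and the log2 difference of 1.74 gave an exact permutation p of 0.0079 (two-sided; adjusted p = 0.024).

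**Figure D2:**
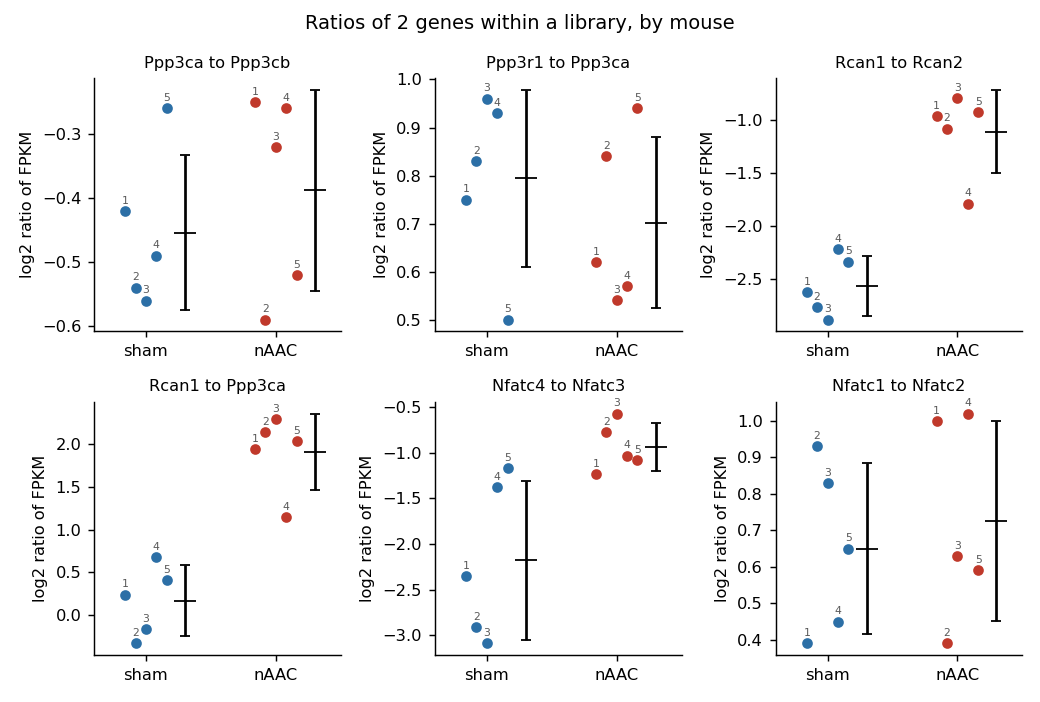
log2 ratio of the FPKM of 2 genes within each library (vertical axes) in sham (blue) and nAAC (red) mice, with the replicate number at each point and mean ± SD beside it. Rcan1 to Rcan2 and Rcan1 to Ppp3ca separate the groups, Nfatc4 to Nfatc3 is higher in nAAC with 1 overlapping sham mouse, and the other 3 ratios overlap.

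The NFAT genes were expressed at a lower level than the phosphatase, and 3 of the 4 were called higher. Nfatc4 (ENSMUSG00000023411; chromosome 14 of GRCm38, 55823144 to 55833943, plus strand) encodes an NFAT protein that was first tied to cardiac hypertrophy through its interaction with GATA4. Its level was 1.96, 2.09, 2.50, 2.60 and 2.53 FPKM in nAAC replicates 1 to 5. It was 0.833, 0.683, 0.582, 0.954 and 2.05 in sham replicates 1 to 5. Sham replicate 5 fell inside the nAAC range, at more than the level of nAAC replicate 1, while the other 4 sham mice were all below 1 FPKM. The mean was 2.34 ± 0.286 in nAAC and 1.02 ± 0.592 in sham mice (SD, n = 5 each), a 2.29-fold difference. Nfatc4 had a log2 FC of 0.76 (SE 0.16; limma adjusted p = 0.00347; exact permutation p = 0.0159), and 0.61 after median-ratio scaling (limma adjusted p = 0.00735). It stayed called in all 19 alternatives but was 0.30 when the trends of each library on transcript length and GC content were removed (limma adjusted p = 0.0305), and 1.24 with a pseudocount of 0.1. Without sham replicate 5 it was 0.92. Sham replicate 5 was the 1 sham mouse with Xist above 10 FPKM. With Xist as a covariate, the log2 FC of Nfatc4 was 0.53 (limma adjusted p = 0.0488).

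Nfatc1, which is known for its role in endocardium and heart valves, was 4.6, 4.06, 4.68, 5.85 and 5.22 FPKM in nAAC replicates 1 to 5. In sham replicates 1 to 5 it was 3.02, 3.20, 2.88, 1.71 and 3.89 FPKM. The lowest nAAC mouse was just above the highest sham mouse, and sham replicate 4 was the lowest of all. Together with Rcan1 it made 2 of the 9 genes whose groups did not overlap with nAAC higher, against 18.9% of all genes tested. Groups were apart with nAAC lower for 3.46% of genes and for none of the 9, or 22.3% of genes in either direction. Nfatc1 had a log2 FC of 0.60 (SE 0.15; limma adjusted p = 0.00939; exact permutation p = 0.00794). After median-ratio scaling it was 0.38 and did not pass (limma adjusted p = 0.0765), nor did it with the length and GC content trends removed, at 0.22 (limma adjusted p = 0.161). Without sham replicate 4 it was 0.47 and called (limma adjusted p = 0.0084).

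Nfatc2, best known from T cells, was the other gene called. It was 2.31, 3.09, 3.02, 2.88 and 3.47 FPKM in nAAC replicates 1 to 5 and 2.31, 1.68, 1.62, 1.25 and 2.48 in sham replicates 1 to 5. Sham replicates 1 and 5 reached the level of nAAC replicate 1, and the remaining mice were apart. Its log2 FC was 0.48 (SE 0.14; limma adjusted p = 0.0178; exact permutation p = 0.0238). It was 0.28 after median-ratio scaling (limma adjusted p = 0.143) and 0.07 with the length and GC content trends removed (0.617), neither of which was called. The T cell marker Cd3e was at 0.163 FPKM or less in every library. The leukocyte markers Ptprc, Csf1r, Cd68 and Adgre1 had log2 FCs of 0.28, 0.11, 0.50 and 0.51 and were not called. The part of T cells or other leukocytes in the Nfatc2 values was not tested.

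Nfatc3, the remaining cytoplasmic NFAT, was 4.6, 3.57, 3.71, 5.30 and 5.35 FPKM in nAAC replicates 1 to 5. In sham replicates 1 to 5 it was 4.24, 5.14, 4.97, 2.49 and 4.61 FPKM. The groups overlapped, apart from sham replicate 4, which lay below the other 9 mice. The log2 FC was 0.07 (95% interval -0.28 to 0.43, limma adjusted p = 0.758), and -0.07 without sham replicate 4.

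In FPKM, the make-up of the NFAT group therefore differed in Nfatc4 against Nfatc3. Nfatc4 stood at 0.427, 0.586, 0.673, 0.490 and 0.473 of Nfatc3 in nAAC replicates 1 to 5, and at 0.196, 0.133, 0.117, 0.384 and 0.445 in sham replicates 1 to 5. Sham replicate 5 was the one sham mouse above an nAAC mouse. The log2 difference was 1.24 (two-sided exact permutation test, p = 0.016, adjusted p = 0.032), and without nAAC replicate 2 or 3 it was 1.20 or 1.15 with an unadjusted exact p of 0.056 for each. This ratio was not tested with the length and GC content trends removed, where the log2 FCs were 0.3 for Nfatc4 and -0.13 for Nfatc3. The log2 ratio of Nfatc1 to Nfatc2 was 0.73 ± 0.27 and 0.65 ± 0.23 (SD, n = 5 each; exact permutation p = 0.6, adjusted p = 0.6). In sham mice Nfatc3 supplied the largest share of the summed NFAT FPKM, at 42.5% ± 6.03, against 30.6% ± 3.15 in nAAC mice (SD, n = 5 each). Nfatc1 supplied 33.2% ± 1.61 in nAAC mice and 28.8% ± 1.30 in sham mice.

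**Figure D3:**
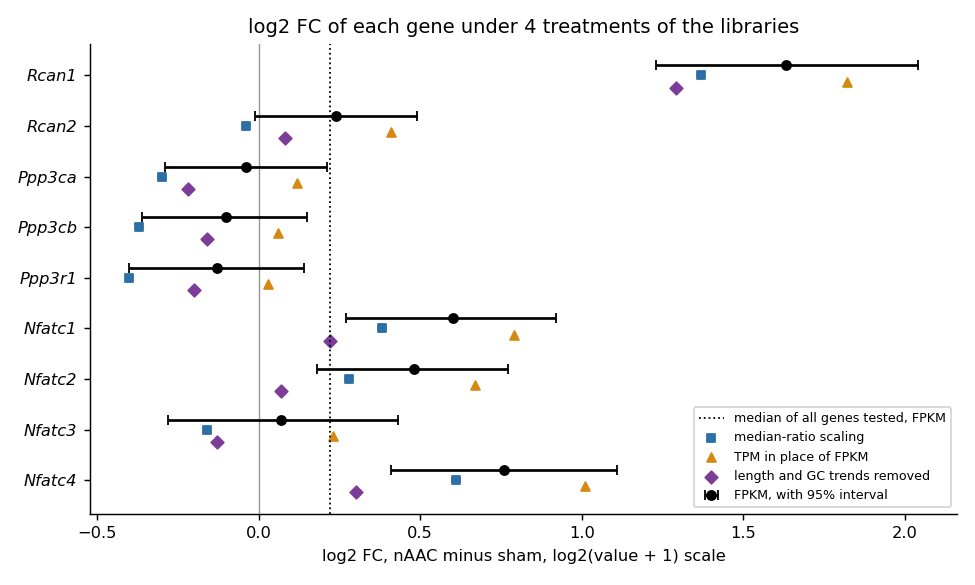
log2 FC (nAAC minus sham, horizontal axis) of each gene from FPKM with its 95% limma interval (black), after median-ratio scaling (blue), in TPM (orange) and with length and GC content trends removed (purple). The dotted line is the median of all genes tested, 0.22, and Rcan1 lies at 1.29 or above in each case while Ppp3ca, Ppp3cb and Ppp3r1 lie on either side of 0.

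By level, the order in sham mice was Rcan2, Ppp3r1, Ppp3cb, Rcan1, Ppp3ca, Nfatc3, Nfatc1, Nfatc2 and Nfatc4, with means of 89.6, 23.5, 18.6, 15.4, 13.5, 4.29, 2.94, 1.87 and 1.02 FPKM. Rcan1 and Ppp3ca overlapped in their ranges, as did Rcan1 and Ppp3cb, Ppp3r1 and Ppp3cb, and each NFAT gene with the next, while Rcan2 stood clear of Ppp3r1 and Ppp3ca of Nfatc3. In nAAC mice Rcan1 moved to the second place, between Rcan2 and Ppp3r1, without overlap with either. Nfatc1 came to stand above Nfatc3 in mean, at 4.88 against 4.51 FPKM, within the spread of both.

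Some markers of several cell types were called higher as well, and others were not. Of 5 fibroblast markers 4 were called higher, where 27.1% of all genes were, and Pdgfra was not called, at a log2 FC of 0.26. The summed FPKM of all 5 was 390.0 to 639.0 after nAAC against 338.0 to 357.0 after sham surgery. Most of this sum was Dcn, with means of 421.0 and 296.0 FPKM. Of 3 mural cell markers 2 were called higher (211.0 to 300.0 against 138.0 to 250 FPKM in sum), and of 6 endothelial and endocardial markers 2 (141.0 to 249.0 against 128.0 to 203.0). Npr3, an endocardial marker, rose with a log2 FC of 0.50 (limma adjusted p = 0.0154). Pecam1, Cdh5, Tie1 and Emcn were not called, at 0.26, 0.06, 0.11 and 0.32, nor was the mural marker Rgs5 (limma adjusted p = 0.994). After median-ratio scaling the fibroblast markers Tcf21 and Col1a1 and the mural marker Myh11 stayed called, and Dcn, Lum, Acta2, Kdr and Npr3 did not (limma adjusted p = 0.43, 0.263, 0.0957, 0.178 and 0.282). None of the 4 leukocyte markers tested was called (12.1 to 31.1 against 12.2 to 18.8 FPKM in sum over 6), and of the 6 cardiomyocyte markers 1 was called higher and 2 lower. After median-ratio scaling the rise of Actc1 was not called (limma adjusted p = 0.25), and Myh6 was called lower along with Tnni3 and Pln. The part of cell composition in the higher Nfatc1, Nfatc2, Nfatc4 and Rcan1 was not tested. Xist, transcribed in cells with an inactive X, was above 10 FPKM in 4 of 5 nAAC mice and in 1 of 5 sham mice, below 1 in 1 and 3 mice, and 3.70 in sham replicate 4, so its level was not balanced between the groups. With Xist as a covariate, Rcan1 and Nfatc4 stayed called at 1.5 and 0.53 (limma adjusted p = 6.52e-04 and 0.0488), while Nfatc1 at 0.51 (0.0789) and Nfatc2 at 0.47 (0.0831) did not.

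Among 19 other calcineurin and NFAT family genes and calcineurin regulators, 15 were tested, 7 rose and none fell, against 31.7% called among all genes. Their median log2 FC was 0.38 against 0.22 for all genes, and after median-ratio scaling 3 were called higher and 1, Fbxo32, lower. Under that scaling 13.2% of all genes were called higher and 12.1% lower, or 25.2% in either direction, so the list was near the share of all genes. Lmcd1, a LIM domain gene whose product is known to promote calcineurin signalling in muscle, had the largest rise, from 12.0 ± 2.38 to 28.2 ± 9.06 FPKM (SD, n = 5 each) with a log2 FC of 1.14 (limma adjusted p = 6.22e-04). Cabin1, which encodes an inhibitor of calcineurin, rose by a log2 FC of 0.68 (limma adjusted p = 0.0013), and Rcan3, the third regulator of the Rcan family, by 0.54 (limma adjusted p = 0.00522). These 3 genes also stayed called after median-ratio scaling, at 0.87, 0.46 and 0.35. Over all alternatives their largest limma adjusted p was 0.0104, 0.02 and 0.0571, so Rcan3 did not stay called in all of them.

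Ppp3cc, the gene of the gamma catalytic subunit, was called higher in FPKM, with 13.1 ± 0.539 FPKM in nAAC and 9.67 ± 1.21 in sham mice (SD, n = 5 each; log2 FC 0.41, limma adjusted p = 0.011). After median-ratio scaling it was 0.16 and not called. It supplied 30.4% ± 1.77 of the summed catalytic FPKM in nAAC and 23.3% ± 3.37 in sham mice. Akap6, which anchors calcineurin at the nuclear envelope of myocytes, Cib1, which anchors it at the sarcolemma, and Fkbp1a, whose product binds the inhibitor tacrolimus, rose by 0.55, 0.60 and 0.38 but were not called after median-ratio scaling. The calmodulin genes Calm2 and Calm3 had log2 FCs of 0.41 and 0.23 and were not called. Myoz2, which encodes the Z-disc calcineurin binder calsarcin-1 and reached the highest FPKM of this list, had a log2 FC of 0.06 (limma adjusted p = 0.78).

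Of 21 NFAT kinases and nuclear partners, all tested, 4 rose and 1 fell, or 23.8% called against 31.7% of all genes. The median log2 FC was 0.11 against 0.22 for all genes. After median-ratio scaling 2 were called higher and 3 lower, against 13.2% and 12.1% of all genes (25.2% in either direction). Gata4, the partner transcription factor, rose from 19.2 ± 5.15 to 31.8 ± 3.96 FPKM (SD, n = 5 each; log2 FC 0.72, limma adjusted p = 0.00447), and stayed called after median-ratio scaling at 0.46. Mef2a, another transcription factor of the hypertrophic response, fell from 33.3 ± 7.57 to 21.2 ± 2.27 FPKM (log2 FC -0.60, limma adjusted p = 0.016), and was -0.87 after median-ratio scaling (limma adjusted p = 0.00331). The groups overlapped for Mef2a, and it was not called in TPM or with Xist as a covariate. Mef2c and Mef2d had log2 FCs of 0.39 and 0.17 and were not called. The scaffold genes Homer2 and Homer3 rose by 0.62 and 0.65, and the kinase gene Csnk1d by 0.36. After median-ratio scaling Homer3 stayed called at 0.42, while Homer2 at 0.36 (limma adjusted p = 0.0569) and Csnk1d at 0.09 (0.517) did not. Over all alternatives the largest limma adjusted p was 0.0591 for Gata4, 0.154 for Homer3 and 0.134 for Mef2a. None of these genes stayed called in all alternatives. The NFAT export kinase genes Gsk3b and Dyrk1a had log2 FCs of 0.32 and 0.31 (limma adjusted p = 0.0955 and 0.0932) and were not called.

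Of 10 calcium entry genes placed upstream of calcineurin, 6 were tested and 1 was called, or 16.7% against 31.7% of all genes. This was Stim2, a calcium sensor of the endoplasmic reticulum, with a log2 FC of 0.48 (limma adjusted p = 0.00989), which was not called after median-ratio scaling at 0.26. The channel gene Trpc1 had a log2 FC of -0.03 (limma adjusted p = 0.861). Trpc6 averaged 0.156 and 0.0757 FPKM in nAAC and sham mice and Trpc5 was listed at 0 in every library, so neither was tested.

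**Figure D4:**
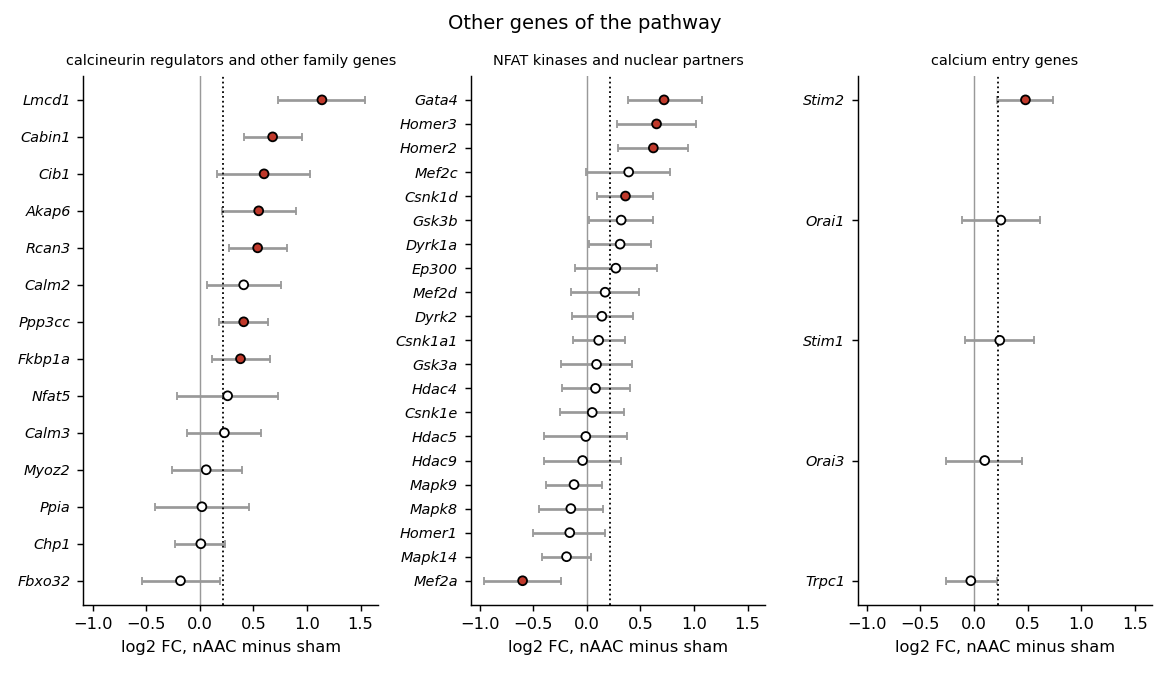
log2 FC (nAAC minus sham, horizontal axis) with 95% limma intervals for tested genes of the 3 lists, of which 2 are not drawn. Filled points have a limma adjusted p below 0.05 and the dotted line is the median of all genes tested. Lmcd1 at 1.14 and Mef2a at -0.60 are the ends of the range.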

How the data were processed

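LV RNA of 5 nAAC and 5 sham mice was analysed, each mouse assigned from its title. Libraries were made from total RNA with a NEBNext Ultra kit, and the build per the labels is mm10. The aligner, quantifier and strand setting are not given in the sources used here, though the layout is that of StringTie. The authors deposited 1 table per mouse with coverage (mean signal per base), FPKM (scaled to transcript length and library total) and TPM (FPKM rescaled to 1 fixed sum per library). Start and end matched GENCODE M21 (GRCm38) for 99.41% of 55141 shared genes.

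Rows sharing a gene ID (7 to 12 per table) were summed. limma 3.58.1 in R 4.3.3, with an empirical Bayes trend, was run on log2(FPKM + 1) where the mean FPKM reached 1, with Benjamini-Hochberg adjustment over 11867 genes. It was tested on simulated data with known changes. Single genes and 6 ratios were also compared by exact permutation tests. The replicate numbers did not pair the mice. Tried besides were scaling by median ratios or upper quartiles, TPM, rescaling without mitochondrial genes, no filter, a smaller pseudocount (0.1), a replicate block, an Xist covariate, loess removal of length and GC content trends (span 0.3), coverage for ratios, and leaving out each mouse. Named genes were the 9 members, the lists, the cell type markers and the 3 tested genes most correlated with each called member. The values of some genes in the lists, which the list counts include, are not reported here. Members and lists were chosen with earlier results of these data known. Figures were drawn with Python 3.11.15 and matplotlib 3.10.9. Promoter windows came from RefSeq, GRCm38.p6.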

Additional observations from a re-analysis of the deposited data

Results flagged for a closer look

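Nfatc3 in sham replicate 4, at 2.49 FPKM, lay far below the other sham mice, its gap to the nearest being 0.72 of the range of the group on the log2 scale, above Dixon's critical value of 0.71. It was the 1 such case in 30 groups of 5 values examined (9 genes and 6 ratios in each group of mice), where chance gives about 1.5. The same library had the lowest sham value of Nfatc1 and Nfatc2, and its deviations fell with transcript length across all genes (Spearman rho -0.66, against -0.02 to 0.47 in the other sham mice). The part of transcript length in these values was not tested beyond the removal of its trend.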

How the results depend on the processing

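Rcan1 and Nfatc4 stayed called higher in all 19 alternatives. Calls of members numbered 4 higher and 0 lower; 2 were higher after median-ratio or upper-quartile scaling, with Xist as a covariate and without length and GC content trends, and 2 and 1 were lower after median-ratio scaling and without these trends. Upper-quartile scaling gave 0.38 for Nfatc1 (limma adjusted p = 0.095), 0.29 for Nfatc2 (0.153), -0.03 for Rcan2 and -0.15 for Nfatc3. Median-ratio scaling gave 0.38, 0.28, -0.04 and -0.16, with -0.37 for Ppp3cb and -0.40 for Ppp3r1 now called. TPM gave 0.41 for Rcan2, now called, and 0.12, 0.06 and 0.03 for Ppp3ca, Ppp3cb and Ppp3r1. Without length and GC content trends Ppp3ca was called at -0.22, Nfatc3 was -0.13, Nfatc1 0.22 and Nfatc2 0.07. With Xist, Nfatc1 was 0.51 and Nfatc2 0.47. Leaving out each mouse gave 1.56 to 1.77 for Rcan1, 0.68 to 0.92 for Nfatc4, 0.47 to 0.68 for Nfatc1, 0.39 to 0.55 for Nfatc2 and -0.07 to 0.14 for Nfatc3. The cause was not tested.

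Over all genes, 3211 were higher, 546 lower and 701 DEGs. Higher genes numbered 1563, 1620, 4973, 1593 and 1684 with median-ratio scaling, upper-quartile scaling, TPM, Xist and trends removed, and lower genes 1431, 1359, 344 and 1908 with median-ratio scaling, upper-quartile scaling, TPM and trends removed. DEGs were 1075 in TPM and 1121 with a pseudocount of 0.1. Calcineurin regulators called higher were 3, 3 and 2 with median-ratio scaling, upper-quartile scaling and Xist, and 1 was lower with median-ratio scaling and with trends removed. Kinases and partners called higher were 2, 7, 1 and 1 with median-ratio scaling, TPM, Xist and trends removed, and those called lower 3, 2, 0, 0 and 7 with median-ratio scaling, upper-quartile scaling, TPM, Xist and trends removed. Calcium entry genes called higher were 0 with both scalings, Xist and trends removed, 2 with no filter, and 1 to 2 without single mice (2 without sham replicate 4).

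The replicate numbers did not pair the mice (correlations of same-numbered deviations -0.32 to 0.19). With the replicate block, Rcan1 was 1.63 (limma adjusted p = 4.00e-04) and no call of a member changed. Exact paired sign-flip tests of the ratios cannot go below p = 0.062, which was reached at 1.46, 1.74 and 1.24 for Rcan1 to Rcan2, Rcan1 to Ppp3ca and Nfatc4 to Nfatc3. Leaving out each mouse gave 1.02 to 1.5 for the last.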

Other observations

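In the sham group, replicate 5 had the highest value of 5 of the 9 genes, namely Rcan1, Rcan2, Nfatc1, Nfatc2 and Nfatc4, and the lowest of none. Sham replicate 5 was also the 1 sham mouse with Xist above 10 FPKM, at 10.6. The part of this in its values was not tested. In the nAAC group, replicate 4 had the lowest Rcan1 and the highest value of 4 other genes, Rcan2, Ppp3ca, Nfatc1 and Nfatc4. On the first principal component of all genes sham replicate 5, at 15.2, lay nearest of the sham mice to the nAAC group, whose values ran from -36.4 to -26.4.

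The tested genes whose log2(FPKM + 1) followed a called gene most closely over the 10 mice are given as a description, since the difference between the groups enters each correlation and the mice share their libraries with both genes. For Rcan1 these were Spsb4, Shb and Klhl40, a nemaline myopathy gene of the muscle thin filament, which averaged 9.81 FPKM in nAAC and 2.67 in sham mice. For Nfatc1 they were Pdgfrb and Notch3, both known from pericytes and vascular smooth muscle, and Bicral. Pdgfrb averaged 18.6 and 11.2 FPKM and Notch3 9.49 and 5.10. For Nfatc2 they were Pdcd11, Frmd5 and Foxk2, and for Nfatc4 Rab11fip3, Scamp2 and Prrt4. Pearson's r of these 12 pairs ran from 0.964 to 0.994.

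Orai2, a calcium channel subunit gene below the level needed for a test, was at 0.455 to 1 FPKM in nAAC mice and 0.176 to 0.37 in sham mice, without overlap. Among all genes tested, 18.9% had groups apart with nAAC higher, and 22.3% in either direction. The other untested calcium entry genes, Trpc4, Trpc5 and Trpc6, overlapped.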
